A study of Mus musculus with 3 samples.

Results

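Fras1, Frem1 and Frem2, the adaptor gene Grip1, nephronectin (Npnt) and integrin alpha 8 (Itga8) were examined in sorted cap mesenchyme of the embryonic mouse kidney. The genes were chosen because they form the matrix and receptor axis whose loss causes kidney agenesis, and all 6 of the 18193 named genes on the array were measured. They were represented by 13 of the 45037 probe sets that were not controls, counting each probe set whose annotation gave a single gene symbol. Npnt had 5 probe sets, Fras1, Grip1 and Itga8 had 2 each, and Frem1 and Frem2 had 1 each.

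The 3 samples formed 1 group, called pools 1, 2 and 3 here. Each was a preparation from some 5 to 10 kidneys of CD-1 embryos at E15.5 (Theiler stage 23) that carried Tg(Six2-EGFP/cre)1Amc, with the sex of the embryos unknown. Cells were isolated by fluorescence-activated sorting after trypsin treatment, and each array received RNA amplified in 2 rounds. Every pool carried the transgene, and no unsorted kidney or other cell population was analysed here, so each gene was set against the background level of its array. The number of arrays limits the precision, and the p-values measure only the spread between these 3 samples, which the labels do not place in separate litters.

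In the mouse kidney, Fras1, Frem1 and Frem2 are large proteins of the basement membrane around the ureteric bud, where they stabilise one another as the Fraser complex. Grip1 is a PDZ-domain adaptor that brings Fras1 and Frem2 to the basal side of epithelial cells. Nephronectin is a secreted ligand deposited along the bud, and it binds integrin alpha 8 beta 1 on the surrounding mesenchyme. Contact through this receptor is needed for normal Gdnf expression, and Gdnf in turn draws the bud into the mesenchyme. Mouse mutants of the 4 Fraser genes are known for skin blistering as well as for missing kidneys.

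Signals are linear array intensities. The background level was the 95th percentile of 150 probe sets for sensory receptor, hair and mucosal defence genes, which was 197, 186 and 201 in signal units for pools 1, 2 and 3. Distances from it are differences on the scale of log2(signal + 16), which understates differences of weak signals. A probe set was called above background when limma's one-sided test gave an adjusted p under 0.05 over all 45037 probe sets, and a gene was called when any of its probe sets was. Probe sets differ in affinity, so levels are not ranked between genes.

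All 6 genes were above background, in a set of arrays where 54.4% of named genes were. The median distance of the 6 genes from background was 3.29 log2 units, each gene being represented by its probe set of highest mean signal. Over all named genes it was 1.20, and over the named genes above background it was 3.65. The median of the 6 genes lay below the latter. Itga8 (6.74), Frem1 (4.49) and Frem2 (3.68) lay above 3.65, and Fras1, Grip1 and Npnt lay below it. Of the 13 probe sets 8 passed, where 41.5% of all probe sets did. At an unadjusted p under 0.05 the count was likewise 8. In sorted bulk samples of this kind, fewer cells of a type and less RNA per cell cannot be told apart.

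**Figure D1:**
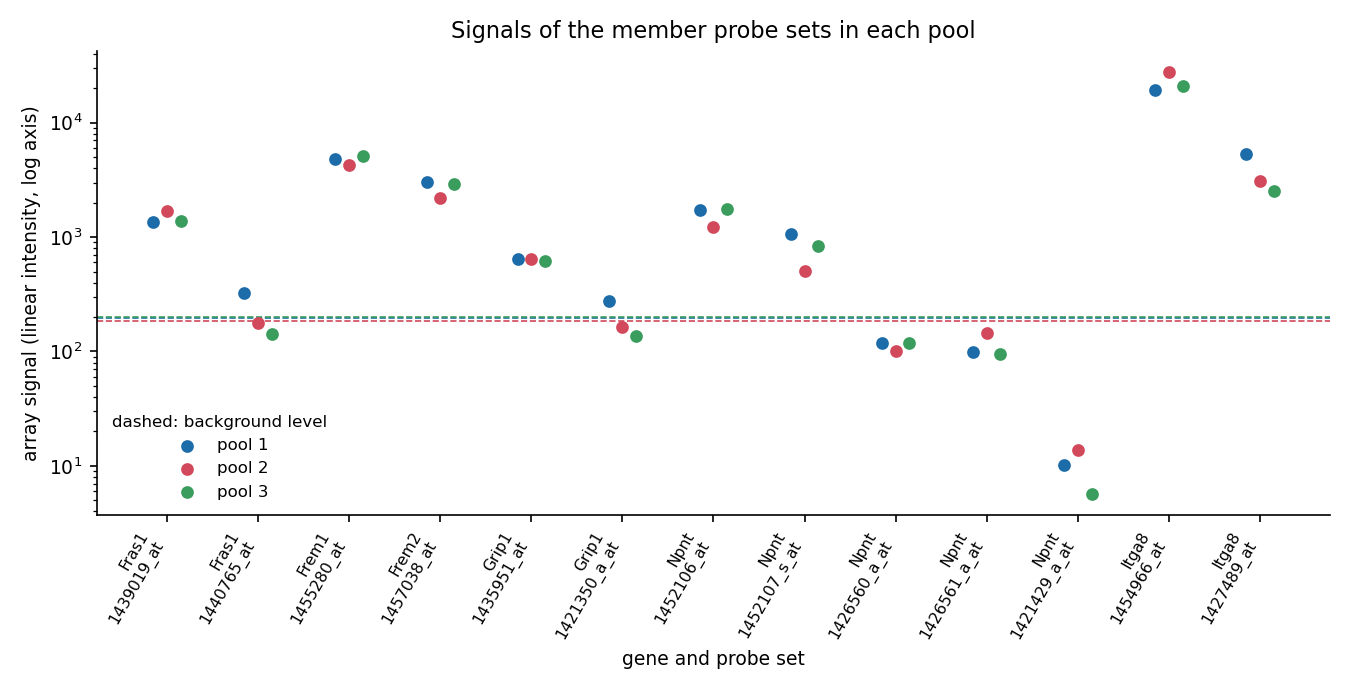
Linear signal (log axis) of each of the 13 member probe sets in pools 1, 2 and 3, with the background level of each array as a dashed line. The Itga8 probe sets reach from 2511 to 27862, whereas 3 of the 5 Npnt probe sets lie below background in every pool.

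Among the matrix genes, Frem1, which encodes a secreted member of the complex, had signals of 4778, 4252 and 5135 in pools 1, 2 and 3. All 3 pools lay far over background, at a mean distance of 4.49 log2 units (95% confidence interval 4.21 to 4.77, n = 3; adjusted p = 1.93e-08, limma). Frem2, which encodes a membrane-anchored member, had signals of 3054, 2182 and 2907 in pools 1, 2 and 3. Pool 2 was the lowest, and the mean distance was 3.68 log2 units (3.36 to 4.00, n = 3; adjusted p = 9.66e-08, limma). Both genes rested on a single probe set, so no second measurement was at hand for either.

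Fras1, the founding member of the complex, was measured by 2 probe sets that differed. Probe set 1439019_at had signals of 1361, 1689 and 1375 in pools 1, 2 and 3. It lay 2.82 log2 units over background (2.47 to 3.17, n = 3; adjusted p = 7.72e-07, limma), with all 3 pools well apart from the background level. Probe set 1440765_at had signals of 327, 178 and 143, so that pool 1 was over background and pools 2 and 3 were under it. Its mean distance was 0.06 log2 units (-0.72 to 0.84, n = 3), and it did not pass (adjusted p = 0.879, limma).

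Grip1, the adaptor, passed on 1 of 2 probe sets and had the smallest distance from background among the 6 representative probe sets, which does not rank the genes by level. Probe set 1435951_at had signals of 645, 642 and 622 in pools 1, 2 and 3, the narrowest spread of the 13 probe sets with a coefficient of variation of 2.01%. It lay 1.63 log2 units over background (1.23 to 2.03, n = 3; adjusted p = 5.01e-05, limma). With the background level at the 99th percentile of the same 150 probe sets, where 46.1% of named genes were called, the distance was 0.50 log2 units and the call was lost (adjusted p = 0.0549, limma). The other probe set, 1421350_a_at, had signals of 277, 164 and 135 and did not pass (-0.08 log2 units, n = 3). Only pool 1 was over background there, the same order of pools as in the second Fras1 probe set.

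Npnt, the ligand, was above background on 2 of its 5 probe sets. Probe set 1452106_at had signals of 1742, 1235 and 1752 in pools 1, 2 and 3, at 2.90 log2 units over background (2.55 to 3.25, n = 3; adjusted p = 6.38e-07, limma). Probe set 1452107_s_at, of a type that can match several transcripts, had signals of 1061, 507 and 836, at 1.90 log2 units over background (1.38 to 2.41, n = 3; adjusted p = 9.27e-05, limma). Both gave the lowest signal in pool 2.

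The remaining Npnt probe sets lay under the background level in all 3 pools. Signals in pools 1, 2 and 3 were 119, 102 and 119 for 1426560_a_at and 98.6, 145 and 94.3 for 1426561_a_at. For 1421429_a_at they were 10.2, 13.7 and 5.72. The annotation gave the same source sequence for 4 of the 5 probe sets, namely both that passed and 2 that did not, so a shared source sequence did not go with a shared call. The probe set far below background, 1421429_a_at, was the one with another source sequence.

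Because Npnt is the ligand end of the axis, the bases just before its gene start are shown with matches to 5 short motifs. The sequence is from RefSeq, build GRCm38.p6, minus strand, chr3:132950292-132950541, the 250 bases before the outermost annotated start, and capitals mark matches to GGGCGG, a GC box, on either strand.
Npnt: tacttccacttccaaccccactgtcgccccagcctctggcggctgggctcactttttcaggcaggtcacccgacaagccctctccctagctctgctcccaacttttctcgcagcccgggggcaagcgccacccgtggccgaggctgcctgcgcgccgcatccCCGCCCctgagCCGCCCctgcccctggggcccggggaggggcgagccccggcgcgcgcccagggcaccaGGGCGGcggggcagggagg
This stretch was 74.0% G and C with 21 CpG dinucleotides, where the medians over the 32851 RefSeq promoter windows, taken at the same length and position, were 52.4% and 6. It held 3 GC boxes that did not overlap, and 32.7% of all windows held at least 1. No match on either strand was found for the TATA box (searched as TATAAA), for a core bound by posterior Hox proteins (searched as TTTATG), for the MEF3 site of the Six2 family (searched as TCAGGTT) or for a GATA site (searched as AGATAA). Of all windows, 12.4%, 10.8%, 3.49% and 9.99% held these motifs.

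Itga8, the receptor subunit, passed on both of its probe sets. Probe set 1454966_at had signals of 19489, 27862 and 21064 in pools 1, 2 and 3, with pool 2 the highest. It lay 6.74 log2 units over background (6.35 to 7.13, n = 3; adjusted p = 1.62e-08, limma), which corresponded to 107-fold on the signal + 16 scale. Probe set 1427489_at had signals of 5284, 3123 and 2511, at 4.05 log2 units over background (3.55 to 4.54, n = 3; adjusted p = 6.83e-07, limma). In contrast to the first probe set, pool 1 was the highest there.

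The same 5 motifs were searched before the Itga8 start, since posterior Hox proteins and Six2 are known in mouse as regulators of this gene. The printed bases are RefSeq, build GRCm38.p6, minus strand, chr2:12301986-12302194, the 209 bases of the promoter window that precede the outermost annotated start, with the match to the posterior Hox core in capitals.
Itga8: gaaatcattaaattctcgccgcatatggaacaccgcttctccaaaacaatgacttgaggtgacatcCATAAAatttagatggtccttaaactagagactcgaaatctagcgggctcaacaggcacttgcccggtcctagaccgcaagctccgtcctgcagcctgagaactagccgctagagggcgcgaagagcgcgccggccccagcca
The posterior Hox core had 1 match, on the reverse strand of the printed bases and 143 bases before the start, and 9.11% of all windows of this length held it. The TATA box, the MEF3 site, the GATA site and the GC box had none, and 9.51%, 2.96%, 8.74% and 26.5% of windows held them. The G and C content was 53.1% against a median of 51.7% over all windows, with 14 CpG dinucleotides against a median of 4. A match describes these letters only. For Frem1, Frem2 and Grip1 the listed windows began inside the annotated gene and are not shown.

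**Figure D2:**
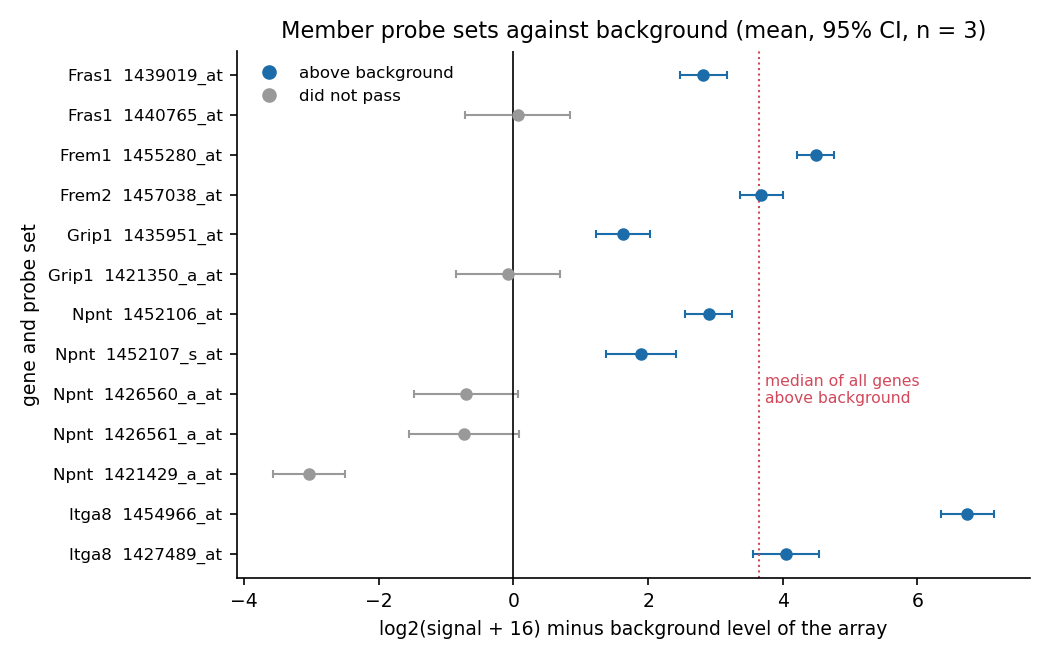
Mean distance of each member probe set from background, on the log2(signal + 16) scale, with limma's 95% confidence interval (n = 3 pools). The 8 probe sets that passed lie between 1.63 and 6.74, the 5 that did not lie between -3.04 and 0.06, and the dotted line marks the median of all genes above background, 3.65.

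Fras1, Grip1 and Npnt thus each had some probe sets over the threshold and some that did not pass, as 3 of the 4 genes measured more than once did. Such splits were common on these arrays: 6484 called genes had several probe sets, and in 64.4% of them at least 1 did not pass. A probe set that did not pass was not shown to lie above background, and this does not show that the transcript was absent.

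The pools differed by at most 0.52 log2 units on the probe sets of highest signal. The range between the highest and the lowest pool was 0.31 log2 units for Fras1, 0.27 for Frem1, 0.48 for Frem2, 0.05 for Grip1, 0.50 for Npnt and 0.52 for Itga8. The median range over all probe sets above background, representative or not, was 0.49, and the 6 genes lay near or under it. Over all probe sets above background the median SD was 0.26 log2 units. It was 0.23 over representative probe sets of called genes measured more than once, a class without Frem1 and Frem2. The SD was over 0.23 for Frem2 (0.26), Itga8 (0.27) and Npnt (0.29). It was under 0.23 for Fras1 (0.17), Frem1 (0.14) and Grip1 (0.03). Each pool was 1 array, so the differences between pools had no test.

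Within these ranges, Npnt, Frem1 and Frem2 were lowest in pool 2, and Itga8 and Fras1 were highest there. In pool 2 the deviation from the 3-pool mean was -0.33 log2 units for Npnt, -0.30 for Frem2 and -0.15 for Frem1, against 0.31 for Itga8 and 0.20 for Fras1. Grip1 deviated by 0.01. Pool 2 was the lowest for 34.5% of all genes above background, and the share for which it was the highest was not determined. Of the 4 ureteric bud markers above background 3 were lowest there, and the summed signal of the 11 measured markers, 7 of which did not pass, was 2020, 1482 and 2834 in pools 1, 2 and 3. Of 10 cap mesenchyme markers, 1, Six2, was lowest in pool 2 and 4 were highest there, with a median deviation of 0.05. Of 16 measured genes that connect the axis to bud outgrowth, 5 were lowest in pool 2 and 5 were highest. Among the lowest, the deviation was -0.43 for Six2, -0.48 for Hoxa11 and -0.55 for Spry1, the feedback inhibitor gene of receptor tyrosine kinase signalling. The part of bud cells in the pool differences was not tested.

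**Figure D3:**
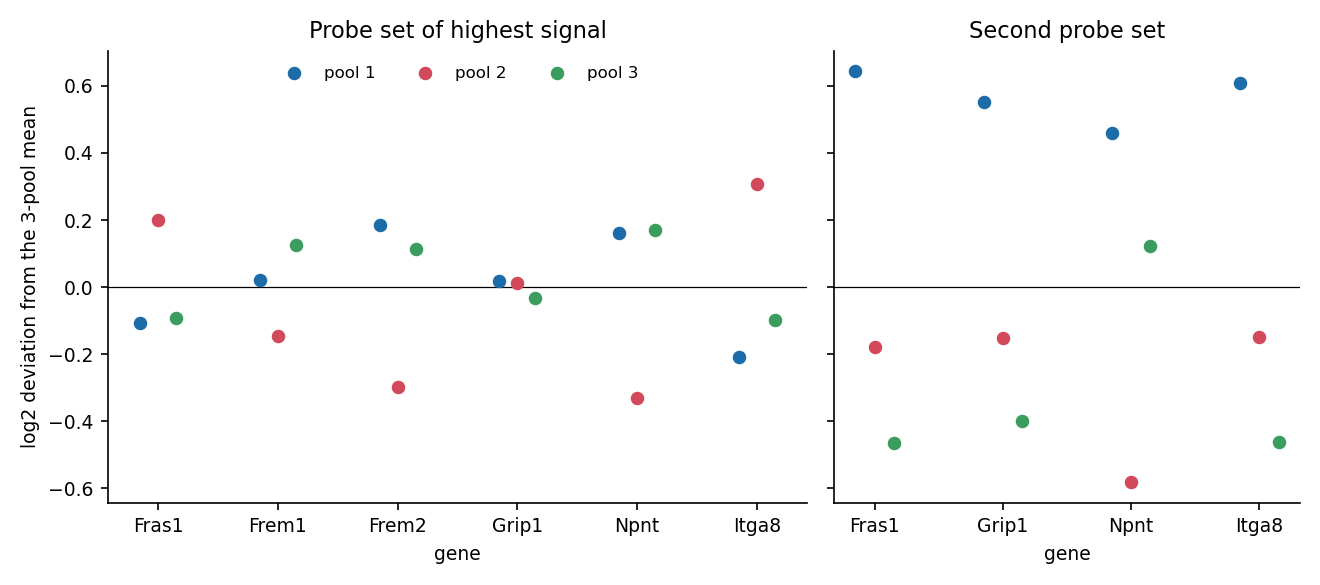
Deviation of each pool from the 3-pool mean of its probe set (log2 units), for the probe set of highest signal of all 6 genes (left) and the second probe set of the 4 genes that have one (right). On the right, pool 1 is the highest for all 4 genes, at 0.46 to 0.64, and on the left it is between -0.21 and 0.18.

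The second probe sets gave another picture of the pools. Pool 1 was highest, pool 2 intermediate and pool 3 lowest on the second probe sets of Fras1, Grip1 and Itga8, with ranges of 1.11, 0.95 and 1.07 log2 units. For Itga8 this turned the order of the pools round: pool 2 stood 0.52 log2 units over pool 1 on the first probe set, and pool 1 stood over pool 2 on the second, with deviations of 0.61 and -0.15. The higher level of Itga8 in pool 2 was therefore not shared by both of its probe sets.

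That order of pools was also frequent among other genes. Of 12929 probe sets that did not represent their gene, in called genes measured more than once, 27.8% had pool 1 over pool 2 over pool 3, against 14.9% of the 6484 representative probe sets of the same genes. Control probe sets at the ends of 2 transcripts were read beside this. The log2 ratio of 3' to 5' signal for Actb was 1.82 in pool 1, 3.28 in pool 2 and 3.18 in pool 3. For Gapdh it was 4.36, 5.05 and 4.08, so pool 1 had the smallest ratio for Actb and not for Gapdh. Where the member probe sets lie along their transcripts was not used here, and the part of RNA length in their pool order was not tested.

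Likeness of pattern was measured as the Euclidean distance between log2 deviations over the 3 arrays, among 9799 genes above background outside the lists. The nearest to Itga8 were 4930430F08Rik, Nup62 and Ndufb11, each at a distance of 0.011. The nearest to Npnt were Jakmip3, Gpn3 and Pdlim4, at 0.0027, 0.010 and 0.011. With only 3 arrays such closeness was common, since 182 genes lay within 0.1 of Itga8 and 221 within 0.1 of Npnt. For the other 4 genes, between 242 and 657 lay within that distance.

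Of 10 measured genes listed as relatives or partners of the Fraser proteins and Grip1, 8 were above background, with a median distance of 2.06 log2 units. This count and those of the lists that follow are to be read against the 54.4% of all named genes that passed and their median of 1.20 log2 units. Fbln1, which encodes a matrix glycoprotein, had signals of 1922, 3535 and 4141 in pools 1, 2 and 3. Efnb1, an ephrin whose tail binds PDZ proteins of the Grip family, was at 3337 ± 189, Ppfia1, which encodes a liprin that binds Grip1, at 2794 ± 481, and Hmcn1, which encodes hemicentin, at 2646 ± 301 (SD, n = 3 each). The anchoring collagen gene Col7a1 was at 1279.7 ± 270.1 (SD, n = 3).

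The other members of this list lay closer to background or under it. Cspg4, whose protein shares a repeat type with the Fraser proteins and binds Grip1, was at 534 ± 147, the convertase gene Furin at 548 ± 80.8 and the ephrin receptor gene Ephb3 at 601 ± 162 (SD, n = 3 each). These 3 passed, but not against the 99th percentile of background, which left 5 of 10, where 46.1% of named genes passed. Grip2, the paralog of Grip1, did not pass, with signals of 77.2, 90.6 and 31.4. Vwa2, whose protein AMACO binds the Fraser complex, did not pass either, with signals of 79.5, 180.1 and 86.6.

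Of the 6 measured ligands of integrin alpha 8 beta 1, Npnt included, 3 were above background, a share near that of all named genes, with a median distance of 1.47 log2 units. Fibronectin (Fn1) had signals of 3666, 4046 and 3914 in pools 1, 2 and 3, and tenascin C (Tnc) had 1484, 1867 and 2533. Both passed (adjusted p = 2.74e-08 and 7.98e-07, limma) and, like Npnt, had further probe sets that did not. Egfl6, which encodes the closest relative of nephronectin, had signals of 145, 270.1 and 204, around the background level, and did not pass. Vitronectin (Vtn, 126 ± 11.0) and Tgfb1, whose latency peptide is a ligand (124 ± 22.7, SD, n = 3 each), did not pass.

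Among the integrin subunits that recognise the RGD sequence, 5 of 9 were above background, also near the share of all named genes, with a median distance of 0.67 log2 units. Itgb1, the partner chain of Itga8, had signals of 3696, 3843 and 2984 in pools 1, 2 and 3, at 4.06 log2 units over background (adjusted p = 6.43e-08, limma), on 3 of its 6 probe sets. Itgav was at 19492 ± 353 and Itgb5, one of its partners, at 3139.7 ± 108 (SD, n = 3 each). Itgav passed on 2 of its 5 probe sets and Itgb5 on 4 of 4. Both chains of the alpha 8 beta 1 receptor and of alpha v beta 5 were thus above background.

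The other RGD integrins gave weak signals. Itga2b, the platelet chain, passed narrowly at 319 ± 21.3 (SD, n = 3; adjusted p = 0.0294, limma), with adjusted p = 0.0867 without pool 1, 0.142 without pool 2 and a position under the 99th percentile of background. Itga5, the fibronectin receptor chain, did not pass and had signals of 307, 228 and 7.09. Itgb3, Itgb6 and Itgb8 did not pass, with mean signals of 59.4, 47.7 and 55.5.

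Of 8 other integrin alpha chains 4 were above background, again near the share of all named genes, with a median distance of 0.89 log2 units. Itga6, a laminin receptor chain, was at 3864 ± 304, Itga9 at 1498 ± 338 and Itga4 at 598 ± 6.36 (SD, n = 3 each). They passed on 1 of 2, 2 of 3 and 1 of 5 probe sets in turn. Itga4 did not pass against the 99th percentile of background, where 2 of 8 genes did. Itga10, which falls outside the rule for named genes and was chosen after its values were seen, had a mean signal of 503 and also passed. Itga1 and Itga7 had mean signals of 34.2 and 10.5 and did not pass.

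**Figure D4:**
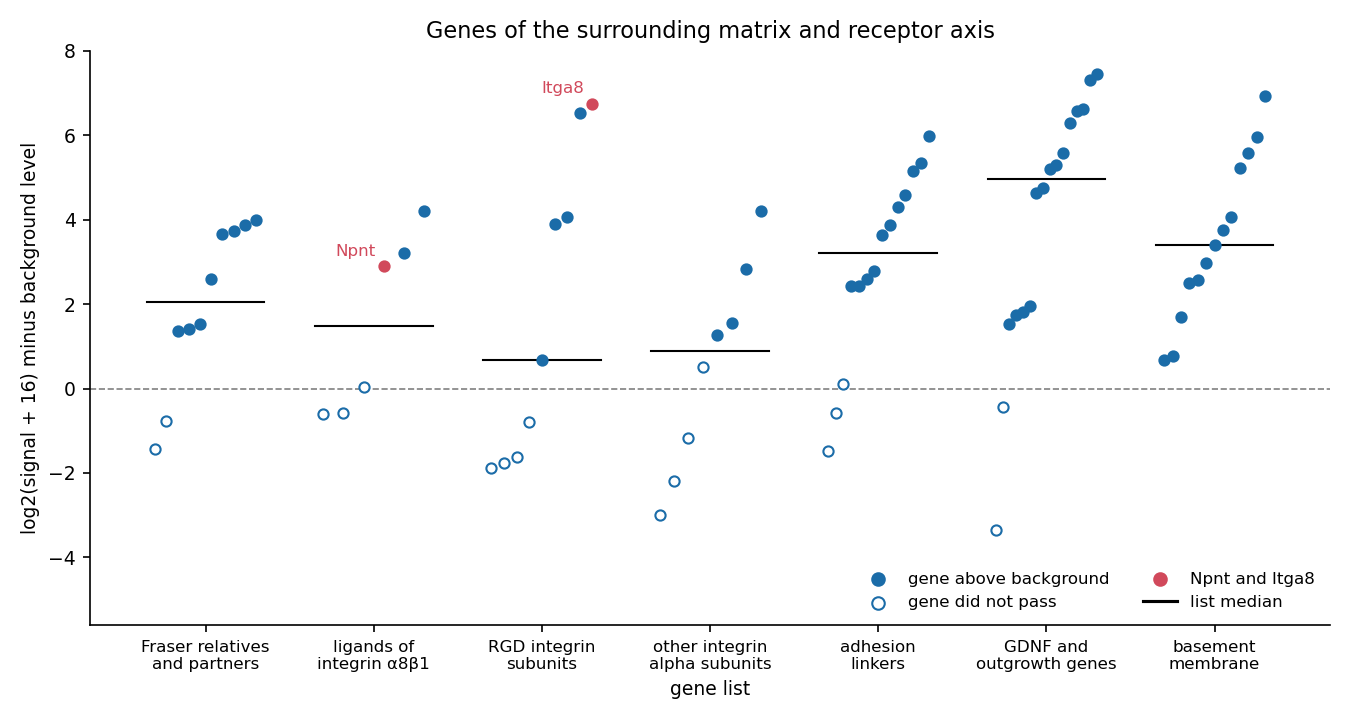
Distance from background of the representative probe set of each measured gene in 7 lists around the axis, on the log2(signal + 16) scale, with filled points for genes above background, open points for genes that did not pass and a bar at the list median. Itga8 lies at 6.74 and Npnt at 2.90, and all 13 basement membrane genes are filled.

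Proteins that link integrins to actin were above background in 11 of 14 cases, with a median distance of 3.21 log2 units. Lims1 was at 13218 ± 1252, the kindlin gene Fermt2 at 8526 ± 332 and vinculin (Vcl) at 7567 ± 1127 (SD, n = 3 each). Lims2 and Parvb, paralogs of linkers that passed, had mean signals of 125 and 61.0 and did not pass.

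Basement membrane genes were above background in 13 of 13 cases, with a median distance of 3.39 log2 units. The laminin chain gene Lamb1 was at 25722 ± 3848, agrin (Agrn) at 10037 ± 905 and the collagen IV gene Col4a2 at 7808 ± 313 (SD, n = 3 each). Lama1 (325 ± 57.6) and Lama5 (343 ± 19.1, SD, n = 3 each) were close to background and lay under its 99th percentile. Lama1 also lost its call without pool 2 and without pool 3, and Lama5 without pool 2.

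Genes that connect the axis to bud outgrowth were above background in 14 of 16 cases, with a median distance of 4.97 log2 units. Kif26b, a kinesin gene required for adhesion of mesenchymal cells around the bud, had signals of 22763, 19960 and 17621 in pools 1, 2 and 3. Its partner Myh10, a non-muscle myosin gene, had signals of 35383, 43264 and 32703. Gdnf was at 8235 ± 982, its co-receptor gene Gfra1 at 16443 ± 1998 and Lgr4 at 5623 ± 489 (SD, n = 3 each).

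Regulators of Itga8 known in mouse were also detected. Hoxa11 had signals of 994, 567 and 895 and Hoxd11 of 701, 650 and 722 in pools 1, 2 and 3. Six2 had signals of 8734, 5727 and 9255, with pool 2 the lowest, where the first Itga8 probe set was highest. Since sorting used a Six2 transgene, the Six2 level is not independent of it. Eya1, Sall1, Wt1, Spry1, Fgf10 and Osr1 also passed, although Osr1 did not against the 99th percentile of background.

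The 2 members of this list that did not pass are genes of the ureteric bud. Ret, the Gdnf receptor gene of the bud, had signals of 131, 136 and 150.2, and Gata3, which is expressed in the bud, had 3.18, 3.14 and 7.65. Both lay under background in every pool.

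Marker lists bear on which cells the samples held, because Fras1, Frem2, Grip1 and Npnt are known in mouse from the ureteric bud. Cap mesenchyme markers were above background in 10 of 10 cases, with summed signals of 128440.2, 129110.6 and 117592 in pools 1, 2 and 3. Ureteric bud markers passed in 4 of 11 cases, Wnt7b (449 ± 115), Wnt11 (445 ± 159), Krt8 (351 ± 86.7) and Krt18 (345 ± 121, SD, n = 3 each), the last outside the rule for named genes. None of these 4 passed against the 99th percentile of background, and Cdh1 had a mean signal of 55.6. No marker of the list was at 0, which does not show that its transcript was present. Gata3, for example, lay under background in every pool. Whether bud cells contributed to the signals of the 6 genes was not tested.

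Other compartments were read in the same way. Npnt is also known from podocytes, and podocyte markers passed in 3 of 6 cases, with Cdkn1c, Ptpro and Podxl above background (Podxl not at the 99th percentile) and Nphs1 (110.3 ± 8.68, SD, n = 3) and Clic5 not. Summed podocyte signals were 11349, 11776 and 12860.3 in pools 1, 2 and 3. Markers of early nephrons passed in 8 of 9 cases, with summed signals of 30848, 30649.7 and 33754. Their median distance from background was 3.30 log2 units, against 5.43 for the cap mesenchyme markers. Ccnd1 was at 13104 ± 1583 and Wnt4 at 5631 ± 921 (SD, n = 3 each), while Fgf8 did not pass. Stromal markers passed in 10 of 11 cases, with summed signals of 38044, 35929 and 30206 and a median distance of 2.17 log2 units. Aldh1a2 was at 11845 ± 3526 and Foxd1 at 7565 ± 322 (SD, n = 3 each). These signals were as strong as those of several cap mesenchyme markers, which does not rank the genes by level. Tbx18 did not pass. Integrin alpha 8 and basement membrane genes are known from stromal cells too, and the part of these cells was not tested.

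Blood and vessel markers mostly did not pass. Endothelial markers passed in 0 of 7 cases and erythroid markers in 0 of 5 by limma, with 0 and 0 at an unadjusted p under 0.05 and no other tool run. Summed signals lay between 506 and 604 for the endothelial list and between 252 and 374 for the erythroid list. Of 6 macrophage markers 1 passed, Laptm5, with summed signals of the list between 808 and 1229.7.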

How the data were processed

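The deposited values are array intensity signals on a linear scale, 1 for each of 45101 probe sets and array, which the authors made with GCOS, per the submitters' processing notes, with no version or settings given. The values themselves show a common scaling, since the mean signal came to 1500 on all 3 arrays once the extreme 2% at both ends was left out. Median signals lay between 184 and 222. Gene names are those of the platform annotation (34945 probe sets had a single symbol), and the 64 controls stayed out of the tests. No genome build is named for the array, so no coordinates of probe sets are given, and the only coordinates are those of the 2 RefSeq promoter windows.

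Signals were tested with limma 3.58.1 in R 4.3.3 on log2(signal + 16) minus the background level of the array (intercept-only model, eBayes with an intensity trend, one-sided, Benjamini-Hochberg adjustment over 45037 probe sets), after the procedure had been tested on simulated data. Lists are described by counts and medians without a test of their own. All genes of 4 lists (Fraser relatives and partners, ligands, RGD integrins and outgrowth) could be named. From each other list, 3 genes at the top and 2 at the bottom of the moderated statistic could be named. List genes that no single-symbol probe set measured were not analysed here. The genes and lists were chosen with earlier results of these data known. Alternatives changed the background percentile, pseudocount, normalization, variance model, filters, call rule and pools. Promoter windows were those of RefSeq, build GRCm38.p6. Tables and plots were made in Python 3.11.15 (pandas 2.3.3, matplotlib 3.10.9).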

Additional observations from a re-analysis of the deposited data

How the results depend on the processing

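Of the 8 member probe sets above background, 7 stayed above it under all 11 alternative fits in which they were tested, and none of the 5 others passed in any. All 6 genes were called in every alternative except the 99th percentile of background, where Grip1 lost its call and 5 remained. Under that percentile the count for the Fraser relatives and partners was 5 in place of 8. For the other integrin alpha chains it was 2 in place of 4. It was 0 in place of 4 for ureteric bud markers and 0 in place of 1 for macrophage markers. There the distance from background turned negative for Itga2b (-0.46), Lama1 (-0.45), Lama5 (-0.36), Krt8 (-0.35), Dcn (-0.25), Wnt11 (-0.061) and Wnt7b (-0.018). Macrophage markers numbered 2 at the 90th percentile and 0 when probe sets with the suffixes _s_at and _x_at, the type of the Laptm5 probe set, were left out. Ureteric bud markers numbered 2 to 3 when single pools were left out (3 without pool 1, 2 without pool 2 and 2 without pool 3). Quantile normalization gave a range between pools of 0.17 log2 units for Grip1 in place of 0.05, with pool 2 highest and pool 1 lowest, and kept the order of pools for the other 5 genes. The causes of these shifts were not tested. No paired analysis was possible because all samples belong to a single group. For the second Fras1 and Grip1 probe sets the 95% confidence intervals of the distance from background (-0.72 to 0.84 and -0.85 to 0.70) held 0. The intervals of the Npnt probe sets 1426560_a_at (-1.48 to 0.07) and 1426561_a_at (-1.55 to 0.09) held 0 as well. A side of the background level could therefore not be given for these probe sets at this signal.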
